A study of Homo sapiens with 18 samples.

Results

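The actin cytoskeleton and contractile genes described here are 47 of the 58870 genes in the count table, matched by symbol with 1 entry each. They are the tropomyosins, actins, calponins, myosin II subunits, crosslinkers, Arp2/3 and capping proteins, filament-severing proteins and SRF with its cofactors, together with 2 fibrillar collagens. The list was chosen from the data: TPM4 and GMFB were selected because both were lower after NRF1 siRNA in every line, and the other members were added as their relatives. Of the 47 genes, 46 passed the filter on low counts. MYL9, the smooth muscle myosin light chain, was the exception, with 0 counts in 17 of 18 libraries.

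Polyadenylated RNA was sequenced from HEK293 Flp-In, an established line of human embryonic kidney origin built to take up a transgene at 1 defined site, in 6 groups of 3 libraries. NRF1 here is nuclear respiratory factor 1, a transcription factor that binds GC-rich promoters, and the experiment asked whether its exon 7 matters for gene expression. The groups were siNRF1+NRF1-ΔE7 and siNT+NRF1-ΔE7, which carry the isoform without exon 7, siNRF1+NRF1-FL and siNT+NRF1-FL, which carry the full-length isoform, and siNRF1 and siNT with no transgene. siNRF1 is 1 siRNA against NRF1 and siNT is the non-targeting control, and every sample was labelled as given both siRNA and doxycycline. The transgenes were doxycycline-inducible, tagged with 3×FLAG and resistant to the siRNA, in stable lines selected with hygromycin. The sample labels put doxycycline 24 h after the siRNA, while the written methods give a shorter delay. The sources used here do not say whether each line was 1 clone, or whether the parental line served as the cells with no transgene. Each comparison of lines is therefore also a comparison of separately derived cultures, and the transgene and the culture cannot be told apart.

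Actin filaments are built from actin monomers, are branched by the Arp2/3 complex, are capped and cut by other proteins, and are bundled and pulled by crosslinkers and myosin II. Tropomyosins lie along the filament and govern which of these proteins can bind it, while GMFB, a relative of cofilin, acts on Arp2/3 branches. Free actin monomers hold the cofactors MRTFA and MRTFB away from the nucleus, and when released these bind SRF, which activates many actin and contractile genes through a motif called the CArG box.

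Library totals ran from 31179285 to 44802675 counts. NRF1, the targeted gene, stood at 7.19, 9.25 and 7.70 CPM (counts per 10⁶ counts) in siNRF1 cells, against 31.1, 29.9 and 29.3 CPM in siNT cells. In the lines the NRF1 count includes the transgene, and it ranged from 37.3 to 50.4 CPM with siNRF1 and from 52.4 to 58.99 CPM with siNT. Of 8 kidney progenitor markers, 7 averaged at least 1 CPM in every group, while PAX8 was at or near 0. Some marker sums moved with the siRNA. The ranges given here are over the 3 sets of cells. The kidney progenitor sum ran from 160.2 to 171 CPM with siNRF1 and from 134 to 143 CPM with siNT. For 6 epithelial markers, mostly KRT8, KRT18 and EPCAM, it ran from 376 to 422 CPM with siNRF1 and 531 to 655 CPM with siNT. Not all 6 were lower with siNRF1: without a transgene, 5 averaged 1 CPM or more with siNRF1 and 4 with siNT. The sum of 4 blood markers, nearly all of it HBA1, ran from 13.6 to 21.1 CPM with siNRF1 and from 7.15 to 13.2 CPM with siNT, with HBG1 and PTPRC at or near 0. Fibroblast, endothelial and neuronal sums overlapped between the siRNAs over the 3 sets. Within the NRF1-ΔE7 line the fibroblast sum did not, at 13.3 to 15.1 CPM with siNRF1 and 11.4 to 13.0 CPM with siNT. The skeletal and cardiac muscle sum was at most 1.46 CPM. Within each set it was higher with siNRF1, without overlap. In the NRF1-ΔE7 line it ran from 0.833 to 1.24 CPM with siNRF1 and from 0.534 to 0.747 CPM with siNT. Some sums also differed between lines. The neuronal sum ran from 211 to 223 CPM in the NRF1-ΔE7 line and from 240 to 261 CPM in the NRF1-FL line. With siNT the epithelial sum ran from 639 to 655 CPM with NRF1-ΔE7 and from 551 to 567 CPM with NRF1-FL. The part of these shifts in the contrasts of the actin genes was not tested. The smooth muscle genes MYH11, DES and ACTG2 and the fibroblast gene COL1A2 reached at most 0.269 CPM in any library. LMOD1 and SYNPO2, also on the smooth muscle list, averaged at least 1 CPM over all libraries. In bulk RNA, fewer cells of a type and less RNA per cell cannot be told apart. Replicates carry only a number in the labels and may share a culture, so each p-value reflects the spread among these libraries, which may be technical.

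The siRNA is shown with the matches to its seed among the actin genes. Capitals mark the seed of the guide strand, bases 2 to 8, which is the stretch that pairs first with an mRNA, and the guide is written as the reverse complement of the listed strand.
siRNA, listed strand: gcuauuguccucuguaucu
siRNA, guide strand: aGAUACAGaggacaauagc
The full 19 bases match the coding sequence of NRF1 at chr7:129677681-129677699 (+) in hg38. A message that can pair with the 7 seed bases holds CTGTATC, and this was searched on the sense strand of the 3′ untranslated region (UTR), taking the canonical transcript of every gene. Of the 47 actin genes, 6 held it (12.8%), against 1551 of 14092 tested protein-coding genes (11.0%). The sites below are the 19 bases of mRNA facing the siRNA in those 6 genes, with the seed match in capitals. GMFB held 3 of them, the first pair lying side by side.
TPM4, chr19:16102928-16102946 (+): gattcttgcaaCTGTATCa
GMFB, chr14:54477572-54477590 (-): attgatgaattCTGTATCt
GMFB, chr14:54477553-54477571 (-): tctttggtttcCTGTATCt
GMFB, chr14:54475312-54475330 (-): gtagccataaaCTGTATCc
ACTN4, chr19:38729500-38729518 (+): attcctccactCTGTATCt
CAPZA1, chr1:112671561-112671579 (+): cacactatcttCTGTATCa
ARPC2, chr2:218254283-218254301 (+): gttcaaaactcCTGTATCt
MYH10, chr17:8475654-8475672 (-): gcctatgcataCTGTATCc

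TPM4 and GMFB, whose values chose the list, had the lowest siRNA responses of the 46 genes. TPM4 (ENSG00000167460.16, chr19:16067021-16103002) encodes a cytoskeletal tropomyosin of non-muscle cells. It stood at 40.5, 41.5 and 39.6 CPM in siNRF1+NRF1-ΔE7 cells, against 606, 598 and 611 CPM in siNT+NRF1-ΔE7 cells. With NRF1-FL present it stood at 41.4, 39.3 and 41.5 CPM with siNRF1, against 530.0, 533 and 512 CPM with siNT. Without a transgene it stood at 42.9, 43.6 and 45.9 CPM with siNRF1, against 578, 579 and 571 CPM with siNT. All 9 siNRF1 libraries were far below all 9 siNT libraries, and the siNRF1 libraries of both transgene lines were below those without a transgene. The log2 fold change was -3.90 ± 0.031 (SE) in the NRF1-ΔE7 line, -3.69 ± 0.031 in the NRF1-FL line and -3.71 ± 0.031 without a transgene.

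GMFB (ENSG00000197045.13, chr14:54474484-54489025) followed the same pattern. It stood at 12.3, 13.3 and 12.1 CPM in siNRF1+NRF1-ΔE7 cells, against 115, 116 and 118 CPM in siNT+NRF1-ΔE7 cells. With NRF1-FL it stood at 12.6, 12.5 and 12.1 CPM under siNRF1, against 116, 114 and 107 CPM under siNT. In cells without a transgene it stood at 13.9, 11.03 and 13.9 CPM under siNRF1, against 113, 118 and 116 CPM under siNT. The groups did not overlap, and the log2 fold change was -3.21, -3.18 and -3.15 in the NRF1-ΔE7 line, the NRF1-FL line and the cells without a transgene. Its relative GMFG, known mainly from blood cells, was filtered out, with at most 0.261 CPM in any library.

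Counts past the thresholds (adjusted p under 0.05 and a log2 fold change over 0.5 in size, edgeR's quasi-likelihood test over 17962 genes) describe the siRNA contrasts, and nothing is read from them, because the list was chosen on those contrasts. In the NRF1-ΔE7 line 20 of 46 actin genes passed, against 32.8% of all genes. Of these 16 were lower, against 16.8% of all genes, and 4 were higher, against 16.0%. Of the 46, 19 passed in the NRF1-FL line, against 27.1% of all genes, with 15 lower (14.0% of all genes) and 4 higher (13.1%). Without a transgene 21 passed, against 28.9% of all genes, with 17 lower (15.2%) and 4 higher (13.7%). The median log2 fold change of the 46 genes was -0.31 in the NRF1-ΔE7 line, -0.29 in the NRF1-FL line and -0.26 without a transgene, beside medians over all genes of 0.02, 0.02 and 0.01. In all 3 lines, 14 members were lower (10.9% of all genes were) and 4 were higher (9.36% of all genes were). ARPC5, ACTR3 and COL3A1 passed in only 1 or 2 lines, and no member passed in opposite directions.

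**Figure D1:**
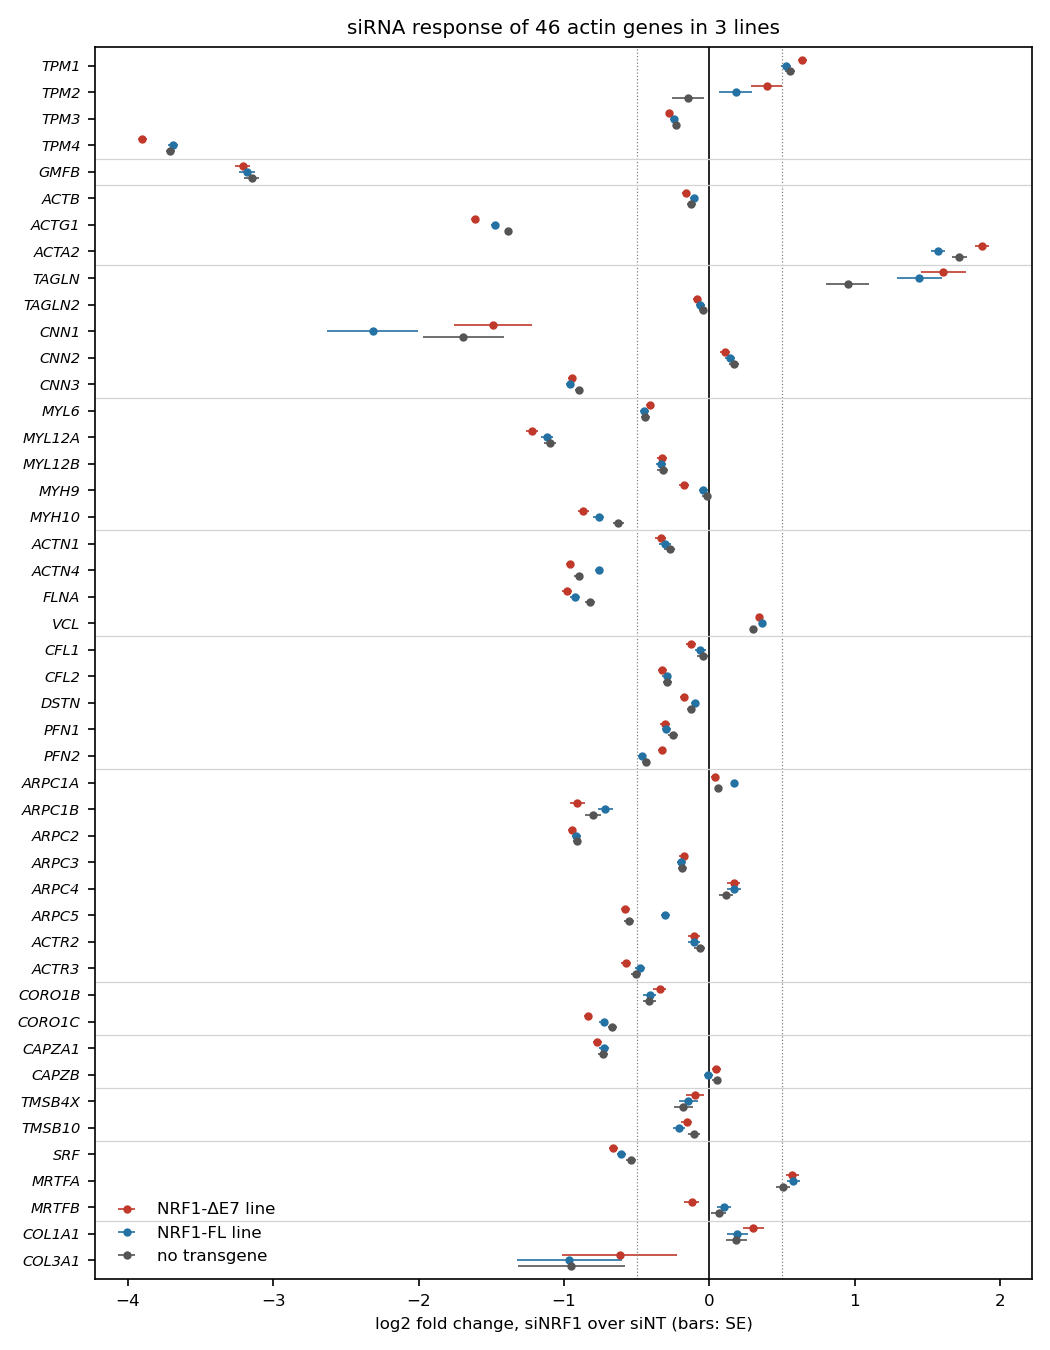
Log2 fold change of siNRF1 over siNT (x axis) for 46 actin genes (y axis, grouped by role), with points for the NRF1-ΔE7 line, the NRF1-FL line and cells without a transgene, bars for the SE and dotted lines at a log2 fold change of 0.5 in either direction. TPM4 and GMFB lie near -3.7 and -3.2 on the far left, ACTA2 and TAGLN on the right, and the 3 lines lie close together for most genes.

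The members near the fold threshold show how the edge of the description falls. SRF, at -0.54 without a transgene, was just past it, as was MRTFA at 0.51. ACTR3, a core Arp2/3 subunit, was at -0.57 in the NRF1-ΔE7 line and -0.48 in the NRF1-FL line, on either side of it. PFN2, a profilin that loads actin monomers, fell short of it at -0.46 in the NRF1-FL line.

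The tropomyosins moved apart from each other. TPM1 (chr15:63042620-63071915), which gives both muscle and cytoskeletal forms, stood at 95.1, 104 and 102 CPM in siNRF1+NRF1-ΔE7 cells, against 63.8, 65.7 and 63.7 CPM in siNT+NRF1-ΔE7 cells. In cells with NRF1-FL it was at 103, 101 and 105 CPM with siNRF1, against 72.6, 72.9 and 68.5 CPM with siNT. Without a transgene it was at 99.7, 99.2 and 99.7 CPM with siNRF1, against 67.9, 68.1 and 67.5 CPM with siNT. TPM1 was thus higher in every siNRF1 library than in every siNT library, with log2 fold changes of 0.64, 0.53 and 0.55 in the same order of lines. TPM3, another cytoskeletal tropomyosin, was slightly lower, at -0.27, -0.24 and -0.23. TPM2, a mainly muscle form, was scarce, with 4.39 to 6.57 CPM, and its log2 fold changes were 0.39, 0.18 and -0.15. An antisense gene, TPM1-AS, overlaps TPM1 and differed in the same direction, with log2 fold changes of 1.74, 1.94 and 1.23, but was rare, with means of 0.342 CPM in siNRF1 cells and 0.144 CPM in siNT cells.

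Summed over the 4 tropomyosin genes and divided by the length of each canonical transcript, the mRNA pool was smaller with siNRF1. TPM4 was chosen for its lower level and gave most of the siNT pool, so the direction follows from the choice and the values are a description. It was 166 ± 5.41 CPM per kb in siNRF1+NRF1-ΔE7 cells and 376 ± 2.82 CPM per kb in siNT+NRF1-ΔE7 cells (SD, n = 3 each). In the NRF1-FL line it was 166 ± 2.54 CPM per kb with siNRF1 and 347 ± 5.78 CPM per kb with siNT. Without a transgene it was 164 ± 1.53 CPM per kb with siNRF1 and 364 ± 1.85 CPM per kb with siNT. The siNRF1 pool was 44.1%, 47.95% and 45.1% of the siNT pool in the NRF1-ΔE7 line, the NRF1-FL line and the cells without a transgene. Its makeup differed too. Without a transgene TPM4 gave 10.9% of the pool with siNRF1 and 64.0% with siNT, TPM1 gave 49.8% and 15.3%, and TPM3 gave 36.6% and 19.3%. The gain in TPM1 on this scale, 81.8 CPM per kb with siNRF1 beside 55.7 CPM per kb with siNT, was small beside the loss of TPM4, at 17.8 and 232.8 CPM per kb. Each gene has several transcripts, and the lengths used run from 1190 bases for TPM2 to 7064 bases for TPM3, so the shares depend on that choice. In CPM, without division by length, TPM3 led the pool of the cells without a transgene with siNRF1, giving 74.0% of it with siNRF1 and 43.3% with siNT. On that scale TPM1 gave 17.4% with siNRF1 and 5.92% with siNT, and TPM4 gave 7.70% and 50.3%.

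The actin genes also differed. ACTG1 (chr17:81509413-81523847), which encodes cytoplasmic gamma-actin, stood at 979, 948 and 968 CPM in siNRF1+NRF1-ΔE7 cells, against 3017, 2963 and 2858 CPM in siNT+NRF1-ΔE7 cells. In the NRF1-FL line it was at 1080.1, 1030.5 and 997 CPM with siNRF1, against 2879, 2886 and 2887 CPM with siNT. Without a transgene it was at 1058, 1073 and 1062 CPM with siNRF1, against 2809.7, 2713 and 2794 CPM with siNT. ACTB, which encodes the closely related beta-actin, differed little, with log2 fold changes of -0.16, -0.11 and -0.12, beside -1.61, -1.48 and -1.38 for ACTG1. Per kb of transcript and without a transgene, ACTB gave 60.4% of the summed ACTB, ACTG1 and ACTA2 mRNA with siNRF1 and 40.6% with siNT, while ACTG1 gave 36.7% and 58.9%. ACTB was the larger of the pair with siNRF1 and ACTG1 with siNT. These genes have similar coding sequences and many processed pseudogenes, so reads could be divided between copies in a way that the count table does not show.

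ACTA2 (chr10:88935074-88991339), smooth muscle alpha-actin, moved the other way. It stood at 64.6, 68.6 and 70.3 CPM in siNRF1+NRF1-ΔE7 cells, against 18.02, 17.3 and 19.96 CPM in siNT+NRF1-ΔE7 cells. With NRF1-FL expressed it was at 61.9, 58.04 and 57.99 CPM with siNRF1, against 19.7, 19.7 and 20.4 CPM with siNT. Without a transgene it was at 59.02, 61.1 and 57.6 CPM with siNRF1, against 18.6, 17.7 and 17.5 CPM with siNT. No siNRF1 library overlapped a siNT library, and the log2 fold changes of 1.88, 1.57 and 1.72 were the highest of any member. FAS overlaps ACTA2 on the opposite strand and was at 24.2 CPM in siNRF1 cells and 23.0 CPM in siNT cells, and the strand setting of the counting was not given in the sources used here. Summed over 8 smooth muscle markers other than ACTA2, the level ran from 56.4 to 59.5 CPM with siNRF1 and from 44.8 to 48.1 CPM with siNT in the NRF1-ΔE7 line. In the NRF1-FL line the sum ran from 58.3 to 61.7 CPM with siNRF1 and from 47.5 to 53.4 CPM with siNT, and without a transgene from 59.4 to 61.6 CPM with siNRF1 and from 48.7 to 51.5 CPM with siNT. Most of it was SMTN, a smoothelin also made in other cells, and 2 or 3 of the 8 markers averaged 1 CPM or more in each group. Of these 8, LMOD1 passed both thresholds for the siRNA in all 3 sets of cells, and SYNPO2 in both transgene lines. CNN1, also among the 8, was lower with siNRF1 and passed in all 3 sets. Its log2 fold changes were -1.49 in the NRF1-ΔE7 line, -2.32 in the NRF1-FL line and -1.69 without a transgene. SYNPO2 also passed between the isoforms with either siRNA. The part of other cells in the ACTA2 result was not tested.

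**Figure D2:**
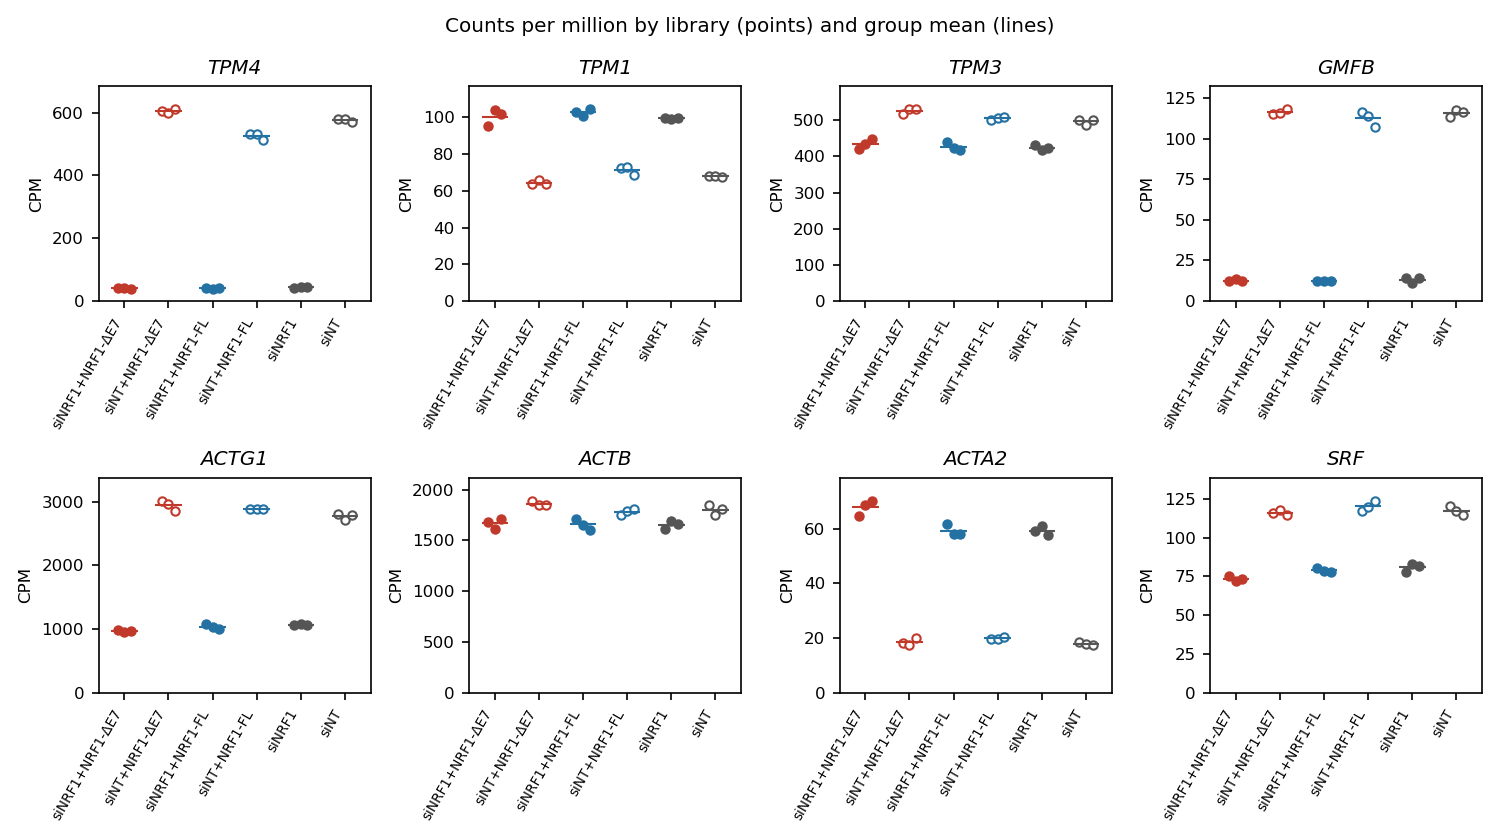
CPM (y axis, from 0) of 8 actin genes in each of 3 libraries of the 6 groups (x axis), with filled points for siNRF1, open points for siNT and lines at the group means. TPM4, GMFB, ACTG1 and SRF are lower and TPM1 and ACTA2 higher in all 9 siNRF1 libraries than in all 9 siNT libraries, while ACTB and TPM3 differ little.

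**Figure D3:**
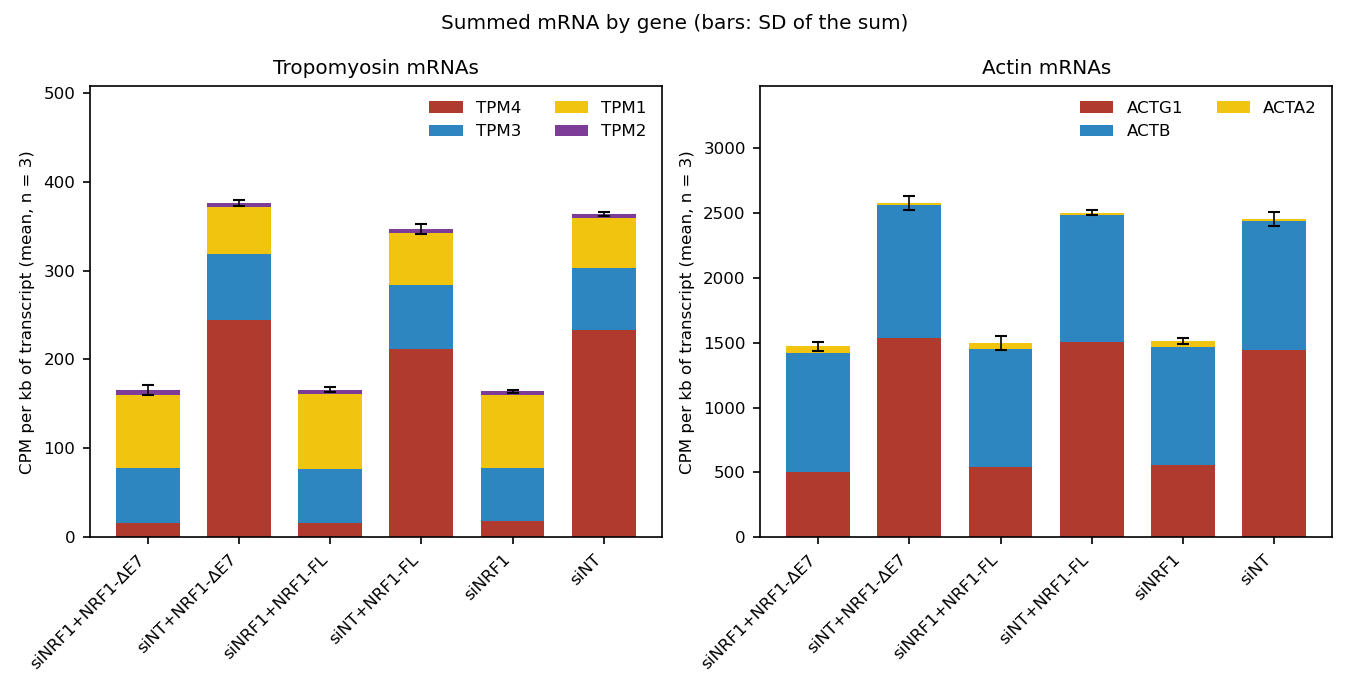
Mean CPM per kb of transcript (y axis, n = 3 libraries, bars for the SD of the sum) stacked by gene for the tropomyosins (left) and actins (right) in the 6 groups (x axis). With siNRF1 the tropomyosin stack is near 166 CPM per kb with little TPM4, against 347 to 376 CPM per kb with siNT, and the actin stack is near 1500 CPM per kb with less ACTG1.

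The other smooth muscle genes on the list did not share 1 direction. TAGLN, transgelin, stood at 2.32, 2.55 and 2.26 CPM in siNRF1+NRF1-ΔE7 cells, against 0.742, 0.814 and 0.772 CPM in siNT+NRF1-ΔE7 cells, a log2 fold change of 1.61 ± 0.15 (SE). CNN1, the smooth muscle calponin, stood at 0.284, 0.404 and 0.440 CPM in siNRF1+NRF1-ΔE7 cells, against 0.980, 1.05 and 1.15 CPM in siNT+NRF1-ΔE7 cells, a log2 fold change of -1.49 ± 0.27. TAGLN was higher and CNN1 lower in the other 2 sets of cells as well, at 1.44 and -2.32 in the NRF1-FL line and at 0.95 and -1.69 without a transgene. Both were rare, with 13 to 21 counts of CNN1 per library in siNRF1+NRF1-ΔE7 cells, and TAGLN overlaps PCSK7 on the opposite strand, which was at 37.7 CPM in siNRF1 cells and 31.9 CPM in siNT cells. Of their broadly expressed relatives, CNN3 was lower, at -0.95, -0.96 and -0.90, CNN2 was at 0.11, 0.14 and 0.17, and TAGLN2 was at -0.09, -0.06 and -0.04.

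SRF and its cofactor MRTFA moved in opposite directions. SRF stood at 75.1, 72.1 and 73.1 CPM in siNRF1+NRF1-ΔE7 cells, against 116, 118 and 115 CPM in siNT+NRF1-ΔE7 cells, and its log2 fold changes were -0.66, -0.60 and -0.54. MRTFA stood at 89.2, 82.9 and 89.4 CPM in siNRF1+NRF1-ΔE7 cells, against 59.8, 59.8 and 56.6 CPM in siNT+NRF1-ΔE7 cells, and its log2 fold changes were 0.57, 0.58 and 0.51. MRTFB, the other cofactor, was at -0.12, 0.10 and 0.06 and did not pass in any line.

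Among myosin II genes, MYL12A, a regulatory light chain, was lower at -1.22, -1.12 and -1.09, and its near-identical relative MYL12B was at -0.32, -0.33 and -0.32. MYH10, the heavy chain of myosin IIB, was at -0.87, -0.76 and -0.63, and MYH9, the heavy chain of myosin IIA, was at -0.18, -0.04 and -0.02. In each of these pairs 1 gene passed in all 3 lines and the other in none. The crosslinkers ACTN4 and FLNA were lower, at -0.96, -0.76 and -0.90 for ACTN4 and -0.98, -0.92 and -0.82 for FLNA. ACTN1, the other non-muscle alpha-actinin, was at -0.33, -0.30 and -0.27. VCL, vinculin of cell adhesions, was higher without passing the fold threshold, at 0.34, 0.36 and 0.30, and it shares exon sequence with AP3M1 on the opposite strand, which was at 40.9 CPM in siNRF1 cells and 159.6 CPM in siNT cells.

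Of 8 Arp2/3 genes, 2 were lower in all 3 lines. ARPC2, a structural core subunit, was at -0.95, -0.91 and -0.91, and ARPC1B was at -0.91, -0.72 and -0.80, while its paralog ARPC1A was at 0.04, 0.17 and 0.06. ARPC3, ARPC4 and ACTR2 lay between -0.19 and 0.17. CORO1C, a coronin that binds filaments, was lower at -0.83, -0.73 and -0.67, and CAPZA1, the alpha subunit of capping protein, was lower at -0.77, -0.72 and -0.73, beside 0.05, -0.01 and 0.05 for its partner CAPZB. The cofilins, DSTN, profilins, thymosins and CORO1B lay between -0.46 and -0.05 in all 3 lines and none passed. COL1A1 was at 0.30, 0.19 and 0.19, and COL3A1 never exceeded 0.874 CPM.

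All 6 actin genes with the 7-base seed match, TPM4, GMFB, ACTN4, CAPZA1, ARPC2 and MYH10, were lower in all 3 lines. Over all tested protein-coding genes, 35.8% of the 1551 with the match were lower in all 3 lines, and 9.11% of the 12541 without it. A match to 6 of the bases alone was held by 12 further actin genes, of which ACTG1, CNN3, MYL12A and SRF were lower in all 3 lines, beside 17.9% of the 2819 such genes overall. Of 28 actin genes with neither match, ARPC1B, CNN1, CORO1C and FLNA were lower in all 3 lines, beside 6.55% of 9722 genes overall. The median log2 fold change of the 6 genes with the 7-base match was -0.95 in the NRF1-ΔE7 line, -0.84 in the NRF1-FL line and -0.90 without a transgene, and that of the 40 without it was -0.18, -0.20 and -0.18. Of the relatives described above, MYH10, ACTN4 and TPM4 held the 7-base match and MYH9, ACTN1, TPM1, TPM2 and TPM3 did not. Neither gene held it in the pairs ACTG1 and ACTB, MYL12A and MYL12B, CNN3 and CNN2, and ARPC1B and ARPC1A. The first-named gene of each pair was also the lower. In these pairs ACTG1, MYL12A and CNN3 held the 6-base match, while ACTB, MYL12B, CNN2, ARPC1B and ARPC1A held neither match. The members were chosen on these responses, the match is a description of letters in 1 transcript per gene, and the part of guide pairing in any fall was not tested.

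**Figure D4:**
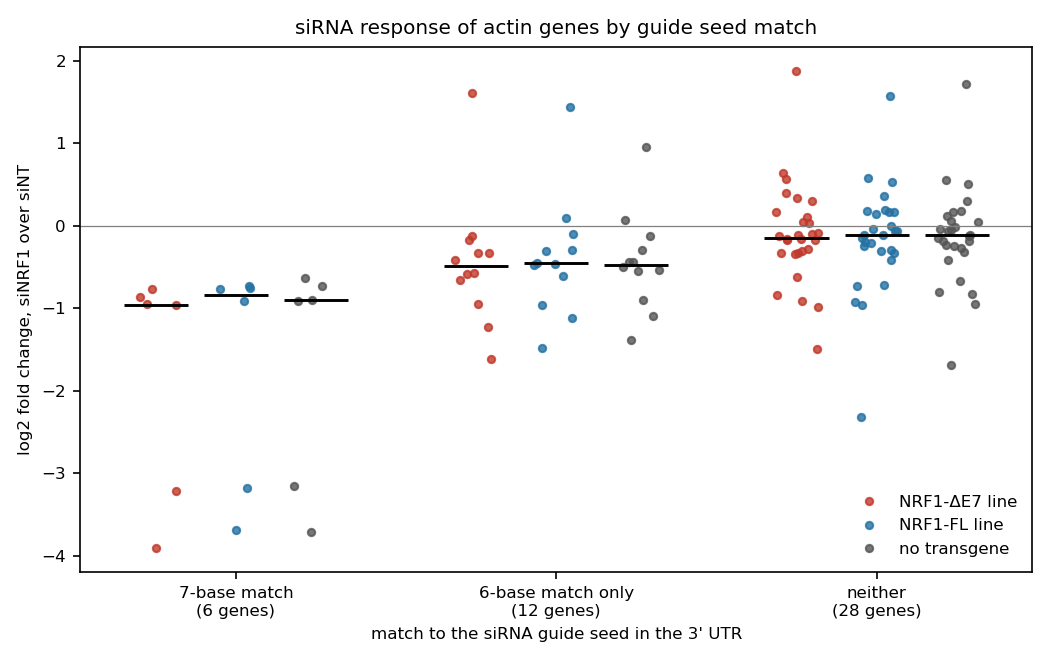
Log2 fold change of siNRF1 over siNT (y axis) of 46 actin genes split by match to the guide seed in the 3′ UTR (x axis), with points for each gene in the NRF1-ΔE7 line, the NRF1-FL line and cells without a transgene, and black lines at the medians. The 6 genes with a 7-base match lie below 0 in every line, with medians of -0.95, -0.84 and -0.90, while the 28 genes with neither match spread to both sides of 0.

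Promoter sequences from RefSeq (GRCh38.p14, 250 bases before the start to 50 after) were at hand for 39 members. They were searched on both strands for a CArG box, the SRF motif, and for the NRF1 core GCGCATGC. The CArG box was taken as CC and GG around a fixed run of A or T bases. Only exact matches in this window were counted, so a gene with no match here may hold a variant or a more distant box. The CArG box was in 5 of the 39 (12.8%), beside 1.29% of 27305 promoters, and the NRF1 core was in 4 (10.3%), beside 3.27%. The windows below show 30 bases around each CArG box, in capitals, on the strand of the gene.
TPM4, chr19:16067355-16067384 (+): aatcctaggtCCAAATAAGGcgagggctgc
ACTG1, chr17:81512874-81512903 (-): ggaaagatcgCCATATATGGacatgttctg
CNN2, chr19:1026509-1026538 (+): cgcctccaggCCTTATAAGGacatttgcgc
FLNA, chrX:154374709-154374738 (-): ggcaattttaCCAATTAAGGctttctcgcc
SRF, chr6:43171229-43171258 (+): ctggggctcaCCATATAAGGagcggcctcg
SRF, chr6:43171249-43171278 (+): agcggcctcgCCATAAAAGGaaacattgta
Of these, TPM4, ACTG1, FLNA and SRF were lower in all 3 lines with siNRF1, and CNN2 was not. The genes with the NRF1 core are shown next, with the core in capitals, and in ARPC1A and MRTFB the cores of both strands overlap.
TPM1, chr15:63048300-63048329 (+): cgccgccgcgaGCATGCGCagtgcccccag
ARPC1A, chr7:99325813-99325842 (+): gcccgagctgtGCGCATGCGCggaccgtcc
ACTR3, chr2:113889858-113889887 (+): cgtaccttattGCGCATGCtcgctagcccc
MRTFB, chr16:14071053-14071082 (+): gccccggacatGCGCATGCGCacgcgcacc
TPM1 was higher in all 3 lines, ACTR3 was lower in 2, and ARPC1A and MRTFB passed in none. A match describes letters only.

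The contrasts between isoforms were not used to choose the list. Between siNRF1+NRF1-ΔE7 and siNRF1+NRF1-FL cells, 1 of 46 actin genes passed both thresholds, against 6.21% of all genes. It was CNN1, at 0.284, 0.404 and 0.440 CPM in siNRF1+NRF1-ΔE7 cells, against 0.215, 0.165 and 0.173 CPM in siNRF1+NRF1-FL cells. The libraries did not overlap, but the log2 fold change of 1.02 ± 0.35 (SE, edgeR adjusted p = 0.029) rests on few counts. It did not pass without replicate 2 or 3 of either group, with adjusted p from 0.069 to 0.11, nor with DESeq2 (adjusted p = 0.072).

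At any fold, 20 actin genes had an edgeR adjusted p under 0.05 between the isoforms with siNRF1, 11 of them higher in NRF1-ΔE7 and 9 lower there, against 31.7% of all genes. The lowest adjusted p values belonged to ACTN4 and ARPC5. ARPC5, an Arp2/3 subunit, stood at 105, 104 and 111 CPM in siNRF1+NRF1-ΔE7 cells, against 128, 129 and 130.0 CPM in siNRF1+NRF1-FL cells. ACTN4 stood at 333, 319 and 327 CPM in siNRF1+NRF1-ΔE7 cells, against 398, 389 and 382 CPM in siNRF1+NRF1-FL cells. Neither gene's groups overlapped, with log2 fold changes of -0.27 ± 0.032 for ARPC5 (SE, edgeR adjusted p = 6.0e-07) and -0.26 ± 0.028 for ACTN4 (adjusted p = 2.0e-07). MRTFB was also lower, at -0.27 ± 0.050 (edgeR adjusted p = 2.0e-04), and SRF at -0.11 ± 0.032 (edgeR adjusted p = 0.012). ACTA2 was higher, at 0.19 ± 0.042 (edgeR adjusted p = 9.0e-04), as was TMSB10, which sequesters actin monomers, at 0.25 ± 0.040 (edgeR adjusted p = 3.3e-05). TPM4 and GMFB did not pass, at -0.01 ± 0.034 (edgeR adjusted p = 0.89) and 0.02 ± 0.068 (edgeR adjusted p = 0.87).

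With siNT, 0 actin genes passed both thresholds between siNT+NRF1-ΔE7 and siNT+NRF1-FL cells by edgeR or DESeq2, against 2.21% of all genes, and 15 had an unadjusted edgeR p under 0.05, beside 27.7% of all genes. At any fold, 10 had an edgeR adjusted p under 0.05, against 15.5% of all genes. TPM4 was among them, at 606, 598 and 611 CPM in siNT+NRF1-ΔE7 cells, against 530.0, 533 and 512 CPM in siNT+NRF1-FL cells, a log2 fold change of 0.20 ± 0.026 (SE, edgeR adjusted p = 5.6e-06). TAGLN2 was higher by 0.21 ± 0.029 (edgeR adjusted p = 1.2e-05) and TPM1 was at -0.15 ± 0.035 (edgeR adjusted p = 0.0046). TAGLN2, TMSB10, CNN2, CFL2, VCL, FLNA, MYL6 and MYL12B were higher in NRF1-ΔE7 with either siRNA.

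**Figure D5:**
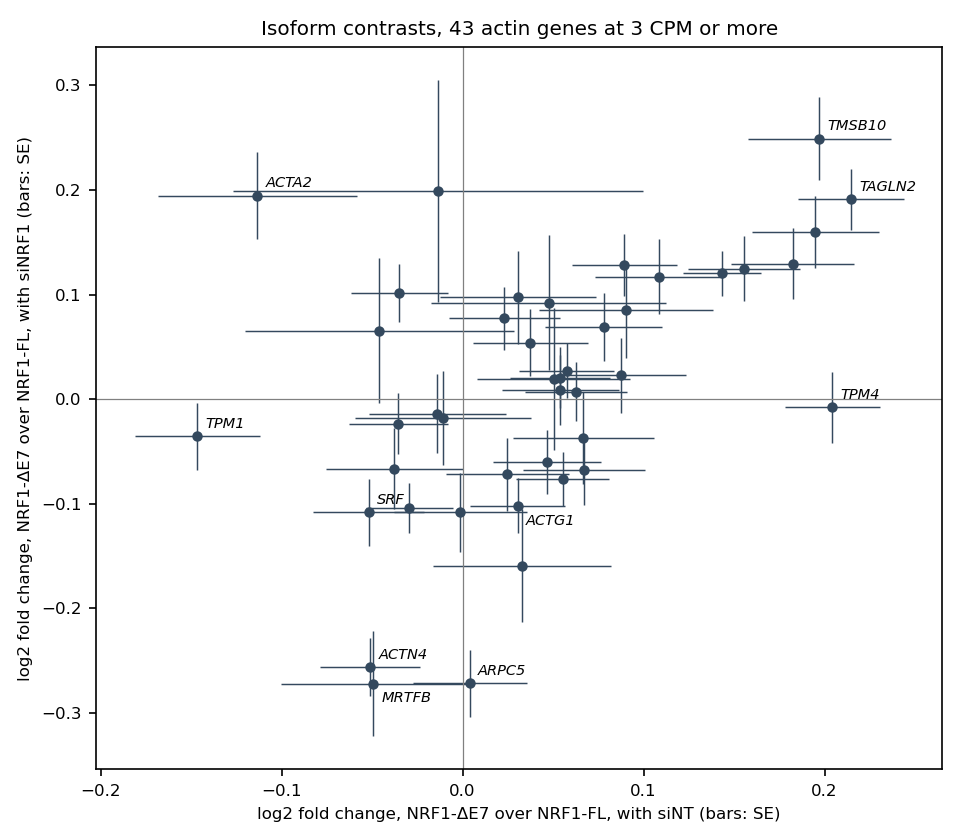
Log2 fold change of NRF1-ΔE7 over NRF1-FL with siNRF1 (y axis) and with siNT (x axis) for 43 actin genes averaging at least 3 CPM, with bars for the SE. ARPC5, ACTN4 and MRTFB lie between -0.27 and -0.26 with siNRF1 and between -0.05 and 0.00 with siNT, TPM4 lies near 0 with siNRF1 and at 0.20 with siNT, and TMSB10 and TAGLN2 are positive on both axes.

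The siRNA response was then compared between lines with an interaction term. By edgeR or DESeq2, 0 actin genes passed both thresholds for NRF1-ΔE7 minus NRF1-FL, against 2.24% of all genes, for NRF1-FL minus no transgene (1.90%) or for NRF1-ΔE7 minus no transgene (0.156%). At an unadjusted edgeR p under 0.05 there were 13, 10 and 13 in the same order, beside 19.3%, 16.0% and 15.6% of all genes. At any fold, 7 actin genes had an edgeR adjusted p under 0.05 for NRF1-ΔE7 minus NRF1-FL, against 7.19% of all genes, 2 for NRF1-FL minus no transgene (5.33%) and 4 for NRF1-ΔE7 minus no transgene (2.03%). ARPC5 stood out in 2 of these. Its log2 fold change was -0.58 in the NRF1-ΔE7 line, -0.30 in the NRF1-FL line and -0.55 without a transgene, so the difference between siNRF1 and siNT was smallest with NRF1-FL. The difference was -0.28 ± 0.045 for NRF1-ΔE7 minus NRF1-FL (SE, edgeR adjusted p = 1.8e-04) and 0.25 ± 0.045 for NRF1-FL minus no transgene (edgeR adjusted p = 8.0e-04). For NRF1-ΔE7 minus no transgene it was -0.03 ± 0.045 (edgeR adjusted p = 0.83). ACTN4 had the same order, at -0.96, -0.76 and -0.90, with a difference of -0.20 ± 0.039 for NRF1-ΔE7 minus NRF1-FL (edgeR adjusted p = 0.0012). TPM4, ACTG1 and ACTA2 had log2 fold changes of larger size in the NRF1-ΔE7 line than in the NRF1-FL line. The differences were -0.21 (edgeR adjusted p = 0.002), -0.13 (0.029) and 0.31 (0.0055). For TPM4 the difference lay in the siNT cells, with means of 605 CPM in the NRF1-ΔE7 line and 525 CPM in the NRF1-FL line. With siNRF1 the TPM4 means were 40.5 and 40.8 CPM in the same order. GMFB was at -0.03 ± 0.080 and did not pass (edgeR adjusted p = 0.89).

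The lines were last compared with the cells without a transgene. With siNT, TAGLN was the 1 actin gene past both thresholds in each line, against 2.22% of all genes for NRF1-ΔE7 and 1.24% for NRF1-FL. It stood at 0.742, 0.814 and 0.772 CPM in siNT+NRF1-ΔE7 cells and 0.776, 0.831 and 0.732 CPM in siNT+NRF1-FL cells, against 1.27, 1.24 and 1.09 CPM in siNT cells. The log2 fold change was -0.63 ± 0.17 for NRF1-ΔE7 (SE, edgeR adjusted p = 0.015) and -0.62 ± 0.17 for NRF1-FL (edgeR adjusted p = 0.027). Both calls were lost with DESeq2 (adjusted p = 0.072 and 0.11) and without siNT replicate 1 (0.075 and 0.12). With siNRF1, 0 actin genes passed in the NRF1-ΔE7 line, against 2.35% of all genes, and 0 in the NRF1-FL line, against 4.80%, by edgeR or DESeq2. At an unadjusted edgeR p under 0.05 there were 23 and 16, beside 32.6% and 32.7% of all genes.

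Of 138 further actin pathway genes in 7 lists, those with the 7-base seed match were 20 of the 133 protein-coding genes tested. CALD1, CAP1, FHOD1, NCKAP1, PARVA, PLS3 and RHOA of these 20 were lower in all 3 lines (35.0%) and 0 were higher, beside 35.8% and 4.96% of all 1551 genes with the match. Of the 113 without it, 7 were lower (6.19%) and 9 higher (7.96%), beside 9.11% and 10.5% of all 12541 such genes. The shares that were lower were thus near those over all genes. CALD1, caldesmon, which stabilizes filaments with tropomyosin, was at -2.05, -1.86 and -1.74, and PLS3, a plastin that bundles filaments, was at -2.66, -2.41 and -2.19. Among 23 further tested SRF and MRTF target genes, 12 passed in the NRF1-ΔE7 line (6 up, 6 down), against 32.8% of all genes, 9 in NRF1-FL cells (4 up, 5 down), against 27.1%, and 13 without a transgene (6 up, 7 down), against 28.9%.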

How the data were processed

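Polyadenylated RNA libraries were made with a stranded kit, and the deposited table holds estimated counts per gene, of which 91.9% are whole; the authors trimmed reads with Cutadapt 1.18 and aligned them with STAR 2.7.0f to hg38, per the submitters' processing notes. Those notes also name DESeq2 1.46.0. The sources used here do not give the counting tool or whether it used strand. Of 36 columns of per-library values, 18 matched no sample here and were not used.

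Estimated counts were rounded to whole numbers and fitted with edgeR 4.0.16 (R 4.3.3): genes were kept with filterByExpr at a minimum count of 10, which left 17962, scaled by TMM (factors 0.944 to 1.07), and tested with the quasi-likelihood F test over all 18 libraries with 1 coefficient per group (12 residual degrees of freedom). P-values were adjusted by Benjamini-Hochberg over all tested genes, and a gene passed at an adjusted p under 0.05 with a log2 fold change over 0.5. CPM used the TMM-scaled library sizes. Each SE was derived from the test, as the size of the log2 fold change divided by the square root of its F statistic. The fit was first tested on simulated data. Depth was 31179285 to 44802675 counts per library and limits precision mainly for genes near or below 1 CPM.

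Same-numbered libraries deviated together at most weakly. The 45 correlations of deviations from group means ran from -0.112 to 0.0862, and 0 exceeded 0.1. The numbers were therefore not used as pairs, though this check cannot show that the samples were unpaired. Transcript lengths, UTRs and positions came from GENCODE 44, a later release than the study used. Exons of 30 of the 47 members overlap another gene there, 22 on the opposite strand.

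Members and lists were chosen with earlier results of these data known. Tropomyosins, GMFB, GMFG, ACTA2, TAGLN, CNN1, SRF and its cofactors were always named. Next came members past the thresholds in contrasts that the selection did not use, with a mean of at least 1 CPM. Then came up to 8 members per direction of siRNA response in at least 2 lines. From each further list, up to 4 genes per contrast past the thresholds qualified, and only some of these are given here. Other members were named to complete a family or complex, after their values were seen. Alternatives were other scalings, filters and thresholds, only the compared libraries, a replicate block, DESeq2 1.42.0 and leaving out each library. RefSeq promoters were not at hand for GMFB, ACTB, TAGLN, MYL9, PFN2, ARPC1B, COL1A1 and COL3A1.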

Additional observations from a re-analysis of the deposited data

Results flagged for a closer look

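The siRNA response of 9 actin genes differed between lines by the interaction test (edgeR adjusted p under 0.05 over all genes), in 13 results, with differences all smaller than 0.5 on the log2 scale. The 3 contrasts between lines share libraries, and the same 18 libraries chose the list.

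For NRF1-ΔE7 minus NRF1-FL the log2 differences were 0.14 for PFN2, 0.31 for ACTA2, -0.20 for ACTN4, -0.28 for ARPC5, -0.21 for TPM4, -0.13 for ACTG1 and -0.13 for ARPC1A. The adjusted p of ACTA2, ACTN4, ARPC5 and TPM4 stayed under 0.05 in all 18 fits that each left out 1 library and in all 7 other alternatives. That of PFN2 reached 0.11, of ACTG1 0.099 and of ARPC1A 0.060 with a library left out.

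For NRF1-FL minus no transgene the log2 differences were 0.14 for ACTN4 and 0.25 for ARPC5. With a library left out the adjusted p of ARPC5 stayed at or below 0.0043, and that of ACTN4 reached 0.11.

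For NRF1-ΔE7 minus no transgene the log2 differences were -0.17 for CORO1C, -0.24 for MYH10, -0.19 for TPM4 and -0.23 for ACTG1. With a library left out the adjusted p of ACTG1 stayed at or below 0.0085, and that of CORO1C reached 0.11, of MYH10 0.056 and of TPM4 0.052.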

How the results depend on the processing

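For actin genes and named genes of the further and marker lists, 312 values were compared with their alternatives in 7793 comparisons. No value with an adjusted p under 0.05 in the main fit reversed, and direction was not followed for the others. The side of the thresholds was kept in 7683 comparisons, lost in 74 and gained in 36. With no fold threshold, 42 (NRF1-ΔE7 line), 39 (NRF1-FL line) and 39 (no transgene) actin genes passed in the siRNA contrasts, beside 68.1%, 63.5% and 64.5% of all genes, 20 between isoforms with siNRF1 (31.7%) and 10 with siNT (15.5%), 7, 2 and 4 in the interactions (NRF1-ΔE7 minus NRF1-FL, NRF1-FL minus no transgene, NRF1-ΔE7 minus no transgene; 7.19%, 5.33% and 2.03%), and 13 (NRF1-ΔE7) and 6 (NRF1-FL) with siNT (16.3% and 8.14%) and 14 and 11 with siNRF1 (21.4% and 22.4%) for lines over no transgene. With a log2 threshold of 1, 7, 7 and 6 passed in the siRNA contrasts (12.8%, 9.62% and 10.6% of all genes) and 0 for either line over siNT. CNN1 between isoforms with siNRF1 was lost, leaving 0, with no filter, at least 10 counts in every library, the compared libraries alone or DESeq2 (edgeR adjusted p 0.051 and 0.054 where fitted, DESeq2 0.072). TAGLN for either line over siNT was lost, leaving 0, with no filter, the compared libraries alone or DESeq2. With 1 library left out, counts ran from 20 to 21, 17 to 19 and 18 to 21 in the siRNA contrasts (NRF1-ΔE7, NRF1-FL, no transgene), 0 to 1 and 0 to 0 between isoforms (siNRF1, siNT), 0 to 0, 0 to 0 and 0 to 1 in the interactions, 0 to 1 for either line over siNT, and 0 to 0 and 0 to 1 for NRF1-ΔE7 and NRF1-FL over siNRF1. TPM2 passed the interaction of NRF1-ΔE7 minus no transgene with no filter (1 gene, 0.54), and without siNT+NRF1-ΔE7 replicate 3. With the replicate number as a block, 1 gene, again TPM2, passed there (log2 difference 0.55). The labels do not say whether the numbers pair the samples, and 21 of 45 correlations were highest with their own number. Without length scaling, the tropomyosin pool with siNRF1 was 0.485, 0.521 and 0.5001 of that with siNT (NRF1-ΔE7, NRF1-FL, no transgene). A 6-base seed match was in 19 actin genes. Upper-quartile scaling shifted the median log2 fold change of all genes to 0.12, 0.11 and 0.094 in the siRNA contrasts, and without a transgene it gave 3110 higher and 2276 lower genes, against 2462 and 2731 by TMM; relative to that shift directions held, and SRF without a transgene, at -0.45, no longer passed. The cause of these changes was not tested. Genes near or below 1 CPM (CNN1, TAGLN, COL3A1) are limited by depth.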

Other observations

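Of 23 further tested SRF and MRTF target genes, 3 passed both thresholds between siNRF1+NRF1-ΔE7 and siNRF1+NRF1-FL cells, against 6.21% of all genes, and 2 between siNT+NRF1-ΔE7 and siNT+NRF1-FL cells, against 2.21%. With siNRF1 these were CCN2, CCN1 and THBS1, which encode secreted proteins, and all 3 were higher with NRF1-ΔE7. CCN2 stood at 28.7, 25.4 and 27.7 CPM in siNRF1+NRF1-ΔE7 cells, against 11.3, 11.6 and 11.6 CPM in siNRF1+NRF1-FL cells, a log2 fold change of 1.24 ± 0.074 (SE, edgeR adjusted p = 9.3e-12). CCN1 was at 0.62 ± 0.046 (edgeR adjusted p = 3.8e-10) and THBS1 at 1.02 ± 0.35 (edgeR adjusted p = 0.027). The SE of THBS1 was the widest of the 3, and its result under the alternatives is not given here. With siNT, CCN2 was higher by 0.61 ± 0.096 (edgeR adjusted p = 8.2e-05) and ANKRD1 by 0.54 ± 0.083 (edgeR adjusted p = 6.0e-05), and the CCN2 siRNA response differed between the lines by 0.64 ± 0.12 (edgeR adjusted p = 0.0012).

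Of 28 further tested crosslinker and adhesion genes, 2 passed with each siRNA, against 6.21% of all genes with siNRF1 and 2.21% with siNT. LCP1, a plastin best known from blood cells, was lower in NRF1-ΔE7 than in NRF1-FL cells with either siRNA, at -1.06 ± 0.030 with siNRF1 (edgeR adjusted p = 2.4e-17) and -1.10 ± 0.030 with siNT (edgeR adjusted p = 2.5e-17). FLNC, the muscle filamin, was higher, at 0.65 ± 0.17 with siNRF1 (edgeR adjusted p = 0.0046) and 0.73 ± 0.16 with siNT (edgeR adjusted p = 0.0026).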
